A study of Mus musculus with 8 samples.

Results

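The 10 cytokine receptor chains Il2ra, Il2rb, Il2rg, Il7r, Il4ra, Il21r, Il6ra, Il6st, Il12rb2 and Ifngr1 were followed in splenic CD4+ T cells of mice whose parents drank water with or without cadmium (Cd). They were found by their symbol among 27179 genes with a deposited value, and all 10 were among the 12605 genes that passed the level needed for testing. Libraries came from 8-week-old C.Cg-Foxp3tm2Tch/J offspring, a strain with a fluorescent reporter at the gene of the regulatory T cell factor Foxp3. The control group descends from untreated parents and the Cd group from parents given 10 ppm CdCl2 in drinking water through mating and, for the dams, pregnancy, with normal water from birth. CD4+ T cells were enriched by negative selection and sorted, and were then either lysed at once (unstimulated) or cultured for 16 hours with anti-CD3/CD28 beads (stimulated), which engage the T cell receptor and the costimulatory receptor CD28. Each of the 4 groups had 2 libraries, numbered 6 and 7. The unstimulated cells were not cultured, so stimulation and the time in culture cannot be told apart. No source used here gives the sex of the animals behind a library or says whether animals were pooled.

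Cytokine receptors are assembled from chains that several receptors share. The common gamma chain, encoded by Il2rg, pairs with the IL-2 receptor beta chain, the IL-7 receptor alpha chain, the IL-4 receptor alpha chain and the IL-21 receptor, and signals through the kinases JAK1 and JAK3 to STAT factors. Il2ra encodes CD25, which binds IL-2 and turns the beta and gamma pair into the high-affinity receptor of activated and regulatory T cells. Il6ra encodes the chain that binds IL-6 and Il6st encodes gp130, its signalling partner, while Il12rb2 and Ifngr1 encode chains of the receptors for IL-12 and interferon gamma, the cytokines of type 1 helper responses.

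Levels are given as RPKM, reads scaled by transcript length and library size, so that chains of different length can be compared within a library. RPKM is relative to all reads of a library and does not give the amount of RNA per cell, so rises and falls here are relative. The libraries held 15542732 to 25486791 reads on genes, and the lowest count of a member was 105 reads, for Il12rb2. Markers of T cells were high, with Cd3e, a chain of the T cell receptor complex, at 306 to 464 RPKM. The B cell gene Ms4a1, the monocyte gene Cd14 and the haemoglobin genes Hba-a1 and Hba-a2 were at 0 in all 8 libraries, and Cd8a did not exceed 0.160 RPKM. Other genes of the same marker lists were above 0, with Cd8b1 at 9.40 to 11.7 RPKM, the B cell gene Cd79a at 2.87 to 4.73 RPKM and the macrophage gene Cd68 at 2.74 to 5.77 RPKM. With stimulation Cd79a rose in Cd offspring (log2 fold change 0.57, limma adjusted p = 0.0041). In control offspring Cd79a was at 0.41 and missed the adjusted p of 0.01 (adjusted p = 0.018). The difference between these 2 responses did not pass (adjusted p = 0.75). Cd68 fell in control (-0.63, adjusted p = 0.0058) and in Cd offspring (-0.79, adjusted p = 0.0020). The myeloid gene Itgam, named after its values were seen, fell from 1.80 to 0.295 RPKM in control (-2.27, adjusted p = 0.00012) and from 1.61 to 0.325 RPKM in Cd offspring (-2.03, adjusted p = 0.00023). The part of these cells in the results was not tested. Summed NK markers were 20.1 to 24.3 RPKM in unstimulated and 7.33 to 7.87 RPKM in stimulated libraries, carried mostly by Klrd1. The NK receptor gene Ncr1 was above 0 in 1 library only. Eomes and Tyrobp of the same list, named after their values were seen, did not pass an adjusted p of 0.01. Eomes was at -0.58 in control and -0.40 in Cd offspring (limma adjusted p = 0.031 and 0.11). Tyrobp was at -0.12 in control and -1.64 in Cd offspring (adjusted p = 0.87 and 0.038). Klrb1c of the same list, named after its values were seen, fell from 4.32 to 0.220 RPKM in control offspring (-3.83, limma adjusted p = 2.2e-05). In Cd offspring Klrb1c fell from 3.70 to 0.212 RPKM (-3.62, adjusted p = 3.0e-05). In these bulk libraries, fewer cells of a type and less RNA per cell cannot be told apart. The 2 libraries of a group are separate samples by their labels, and p-values measure the spread between these libraries.

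In unstimulated control cells the gamma chain gene Il2rg was the highest of the 10, at 320 ± 7.69 RPKM (SD, n = 2). Il7r followed at 235 ± 4.84 RPKM and Il6ra at 130 ± 0.617 RPKM. Il21r, Il6st, Il4ra and Ifngr1 lay between 93.9 and 63.3 RPKM in that order, Il2rb at 30.1 RPKM, and Il12rb2 and Il2ra at 3.25 and 1.89 RPKM. No neighbours in this order overlapped in their libraries, and unstimulated Cd cells had the same order. After stimulation Il2ra moved from the last place to the third in both offspring groups, behind Il2rg and Il7r, and its libraries overlapped those of Il2rb, the fourth. Ifngr1 and Il4ra also overlapped in stimulated cells of both offspring groups, and Il2rb and Il6st overlapped in stimulated Cd cells. The sum of the 10 chains was 1033 ± 10.7 RPKM in unstimulated and 870 ± 14.6 RPKM in stimulated control cells, and 1021 ± 6.06 and 875 ± 5.08 RPKM in Cd cells.

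**Figure D1:**
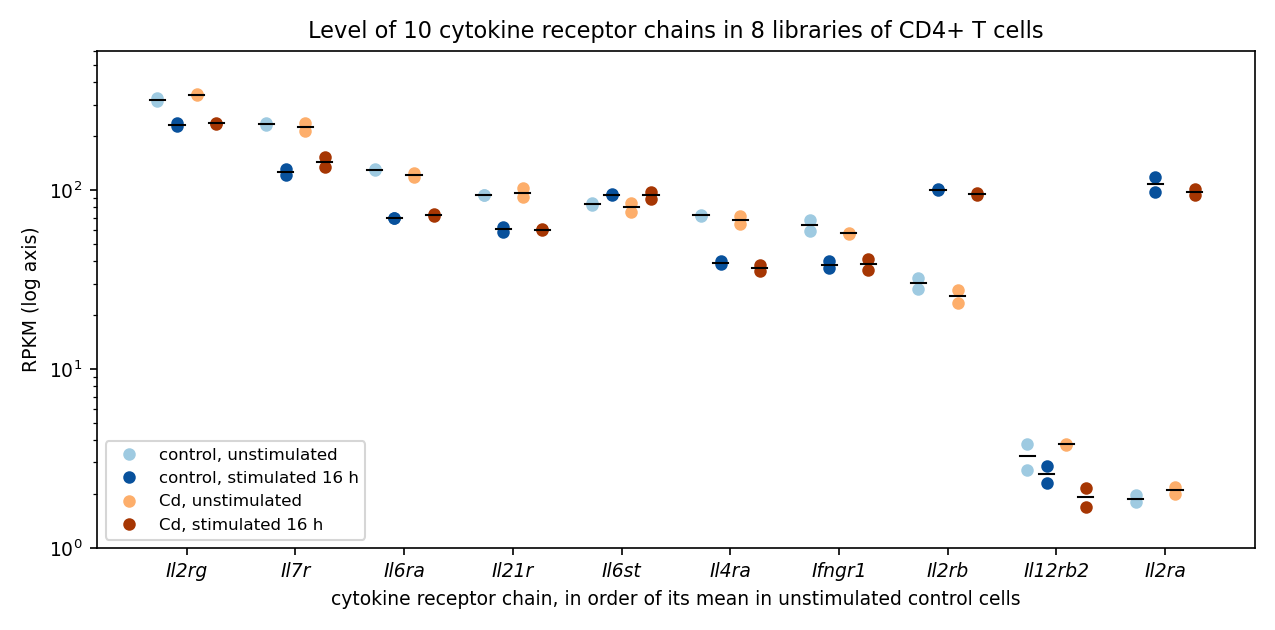
Level of each receptor chain (RPKM, log axis) in the 8 libraries, with chains ordered by their mean in unstimulated control cells; each point is 1 library and each bar the mean of the 2 libraries of a group. Il2ra rose from between 1.80 and 2.19 RPKM to between 94.0 and 117 RPKM, Il2rb rose by less, and most of the other chains were lower after stimulation.

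Stimulated and unstimulated cells were compared within each offspring group, with a call at more than 2-fold and an adjusted p below 0.01. Of the 10 chains, 2 rose in control offspring, Il2ra and Il2rb, and none fell past these thresholds. The same 2 rose in Cd offspring. Over all genes tested, 11.5% were called higher and 7.17% lower in control offspring, and 11.4% and 7.24% in Cd offspring. The study's 2-fold threshold leaves out most of the decreases among the chains, so they were also counted at any fold with an adjusted p below 0.01, a rule chosen after the values were seen. By that rule 2 rose and 6 fell in control offspring, where 29.9% of all genes were higher and 21.8% lower. In Cd offspring 2 rose and 7 fell, against 30.2% and 22.3% of all genes. The median log2 fold change of the 10 chains was -0.55 in control and -0.61 in Cd offspring, beside 0.07 and 0.05 over all genes tested. A chain is said here to rise or fall where it passed the adjusted p of 0.01.

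The alpha chain gene of the IL-2 receptor, Il2ra, had 1.97 and 1.80 RPKM in unstimulated control libraries and 117 and 97.6 RPKM in stimulated ones. In Cd offspring it had 2.19 and 2.0 RPKM before and 94.0 and 101 RPKM after stimulation. Every stimulated library was thus far above every unstimulated one. The increase was 5.76 ± 0.10 (log2 fold change ± SE) in control offspring, or 54.0-fold, and 5.47 ± 0.10 in Cd offspring, or 44.4-fold, with limma adjusted p of 8.9e-08 and 1.2e-07. Reads on Il2ra numbered 130 to 188 in unstimulated libraries, and the 95% Poisson interval of the lowest value, 1.80 RPKM, was 1.5 to 2.14 RPKM for counting error alone. The study describes the sequenced control cells as negative for CD25, the protein of Il2ra, while its methods name a sort without the gate. Such a gate would bear on the unstimulated level, and its part was not tested.

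The beta chain gene Il2rb, whose protein signals for both IL-2 and IL-15, had 32.1 and 28.1 RPKM in unstimulated and 99.6 and 101 RPKM in stimulated control libraries. The Cd libraries had 23.4 and 27.4 RPKM before and 93.7 and 96.7 RPKM after stimulation. The groups did not overlap, and Il2rb rose 3.34-fold in control (log2 fold change 1.74 ± 0.09, limma adjusted p = 2.8e-06) and 3.75-fold in Cd offspring (1.91 ± 0.09, adjusted p = 1.9e-06). NK cells carry this chain as well, and the part of NK cells in its level was not tested.

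Il2rg, the third chain of the receptor, moved the other way. It had 325 and 314 RPKM in unstimulated and 228 and 235 RPKM in stimulated control libraries, and in Cd offspring 343 and 340 RPKM before and 234 and 238 RPKM after. It fell by 0.47 ± 0.05 on the log2 scale in control and by 0.53 ± 0.05 in Cd offspring, which is 1.38-fold and 1.45-fold, with limma adjusted p of 7.7e-05 and 3.9e-05. The ratio of Il2ra to Il2rg in RPKM went from 0.00590 ± 0.00023 to 0.466 ± 0.0716 in control libraries and from 0.00613 ± 0.00035 to 0.412 ± 0.0161 in Cd libraries (SD, n = 2). Il2ra and Il2rb, which differed by a ratio of 0.0627 in unstimulated control cells, were near parity after stimulation, at a ratio of 1.07 ± 0.153 in control and 1.02 ± 0.0275 in Cd offspring.

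**Figure D2:**
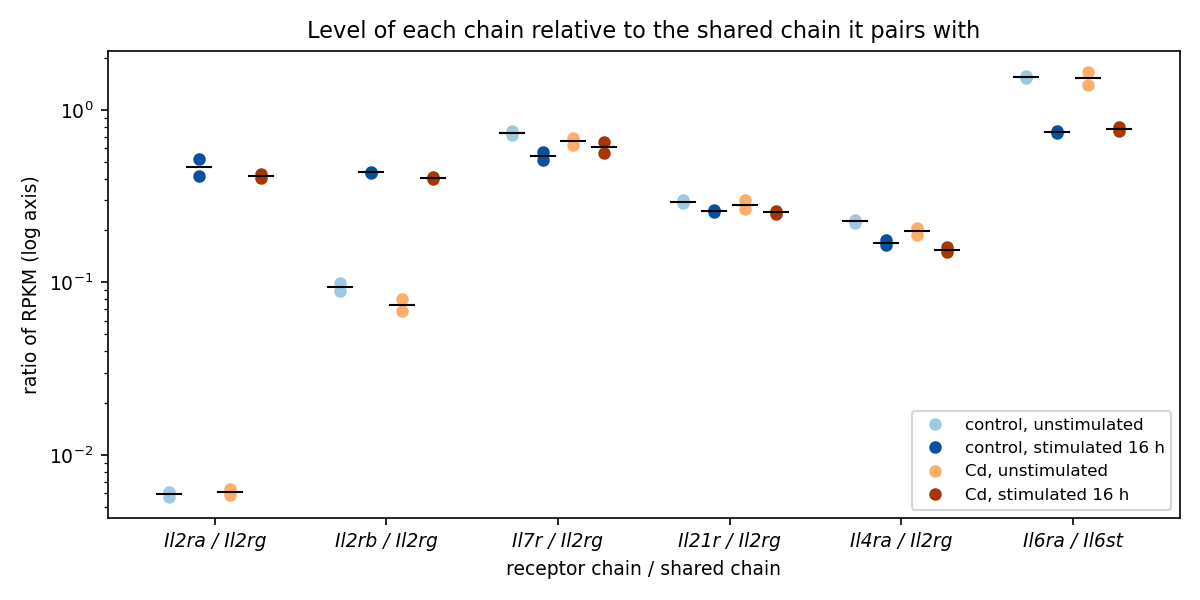
Ratio of the RPKM of a receptor chain to that of the shared chain it pairs with, gamma chain Il2rg or gp130 gene Il6st (log axis); points are libraries and bars the mean of 2 libraries. The ratios of Il2ra and Il2rb to Il2rg were higher in stimulated libraries, and the ratio of Il6ra to Il6st went from 1.56 to 0.744 in control offspring.

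The other partners of the gamma chain fell with stimulation in both offspring groups. Il7r, the receptor for the survival cytokine IL-7 in resting T cells, had 231 and 238 RPKM in unstimulated and 130 and 121 RPKM in stimulated control libraries. The Cd libraries had 214 and 235 RPKM before and 152 and 134 RPKM after. It fell by 0.90 ± 0.08 on the log2 scale or 1.87-fold in control offspring, and by 0.65 ± 0.08 or 1.57-fold in Cd offspring, with limma adjusted p of 3.7e-05 and 0.00021. Relative to Il2rg, Il7r was at 0.735 ± 0.0328 and 0.543 ± 0.0417 in unstimulated and stimulated control libraries, and at 0.658 ± 0.0478 and 0.607 ± 0.0611 in Cd libraries, where the 2 groups overlapped.

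Il4ra, whose protein binds IL-4 and is shared with the IL-13 receptor, had 71.8 and 72.5 RPKM in unstimulated and 39.9 and 38.8 RPKM in stimulated control libraries. In Cd offspring the values were 71.3 and 64.5 RPKM before and 35.1 and 38.1 RPKM after stimulation. Every unstimulated library was above every stimulated one, and Il4ra fell 1.83-fold in control and 1.85-fold in Cd offspring (limma adjusted p = 1.6e-05 and 1.5e-05). Il21r, the receptor for a cytokine of follicular helper T cells, had 93.9 RPKM in both unstimulated control libraries and 58.2 and 62.1 RPKM in the stimulated ones. Its Cd libraries had 102 and 90.9 RPKM before and 60.6 and 59.6 RPKM after stimulation. It fell 1.56-fold and 1.60-fold, without overlap of the libraries, with limma adjusted p of 8.1e-05 and 6.0e-05. Il4ra (chr7:125552271-125579474, GRCm38.p6) and Il21r (chr7:125603252-125634397) are neighbours on the same strand with 23777 bases between them.

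Of the IL-6 receptor chains Il6ra fell and Il6st did not pass the test. Il6ra had 130.5 and 129.6 RPKM in unstimulated and 69.9 and 70.1 RPKM in stimulated control libraries, and in Cd offspring 125 and 119 RPKM before and 73.3 and 71.4 RPKM after. Il6ra fell 1.86-fold in control and 1.68-fold in Cd offspring, with limma adjusted p of 2.5e-06 and 5.7e-06. Il6st had 82.8 and 84.2 RPKM in unstimulated and 94.7 and 93.5 RPKM in stimulated control libraries. The Cd libraries had 75.3 and 85.0 RPKM before and 97.5 and 89.4 RPKM after stimulation. The stimulated libraries were the higher ones in both offspring groups, but the log2 fold changes of 0.17 ± 0.07 and 0.22 ± 0.07 missed the threshold (limma adjusted p = 0.059 and 0.023), with 95% intervals of 0.01 to 0.33 and 0.06 to 0.38. In Cd offspring voom weighting of the recovered reads gave 0.22 with an adjusted p of 0.0064, and without unstimulated Cd library 7 it was 0.31 with 0.0053. The ratio of Il6ra to Il6st went from 1.56 ± 0.0262 to 0.744 ± 0.00795 in control and from 1.53 ± 0.185 to 0.775 ± 0.0331 in Cd libraries, so the binding chain had the higher level before and gp130 the higher level after stimulation.

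Ifngr1, the chain that binds interferon gamma, had 67.9 and 58.7 RPKM in unstimulated and 39.9 and 36.7 RPKM in stimulated control libraries. Its Cd libraries had 56.8 and 57.5 RPKM before and 35.9 and 41.3 RPKM after stimulation. Ifngr1 fell 1.65-fold in control and 1.48-fold in Cd offspring (limma adjusted p = 0.00028 and 0.0010). Ifngr2, the signalling chain of the same receptor and no member of the set, was named after its values were seen. It had 36.9 and 39.2 RPKM in unstimulated and 36.7 and 36.6 RPKM in stimulated control libraries, with a log2 fold change of -0.05 (adjusted p = 0.45) in control and 0.10 (adjusted p = 0.17) in Cd offspring, the latter at -0.08 under quantile normalization.

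Il12rb2, the IL-12 chain that marks type 1 helper cells, stayed low. It had 2.72 and 3.79 RPKM in unstimulated and 2.29 and 2.88 RPKM in stimulated control libraries, which overlapped. In Cd offspring it had 3.83 and 3.75 RPKM before and 1.70 and 2.16 RPKM after stimulation, without overlap. The log2 fold change was -0.31 ± 0.20 in control offspring (limma adjusted p = 0.21) and -0.95 ± 0.20 in Cd offspring (adjusted p = 0.0040). The Cd value was -0.93 without unstimulated library 6, -0.96 without unstimulated library 7 and -0.78 without stimulated library 6, with adjusted p of 0.020, 0.018 and 0.029, so the call needs each of these libraries. The values rest on 105 to 227 reads per library, and the 95% Poisson interval of the lowest, 1.70 RPKM, was 1.40 to 2.05 RPKM. The annotated span of Il12rb2 (chr6:67285986-67376293, GRCm38.p6) overlaps that of Serbp1 on the opposite strand, which had 85.3 ± 5.11 RPKM in unstimulated and 187 ± 14.0 RPKM in stimulated control libraries. The sources used here do not state whether counting used strand, and without it reads of overlapping genes cannot be told apart. Serbp1 rose by 1.13 on the log2 scale in control and by 1.03 in Cd offspring, and its part in the values of Il12rb2 was not tested. Further transcripts overlap other chains, Gm20489 on the strand of Il2rg, Gm39760 and Gm37881 in Il2ra, Gm44876 opposite Il4ra, and Gm46811 and Gm42809 in Il6ra. Gm39760 and Gm46811 have no value here, and values of the others were not looked up.

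**Figure D3:**
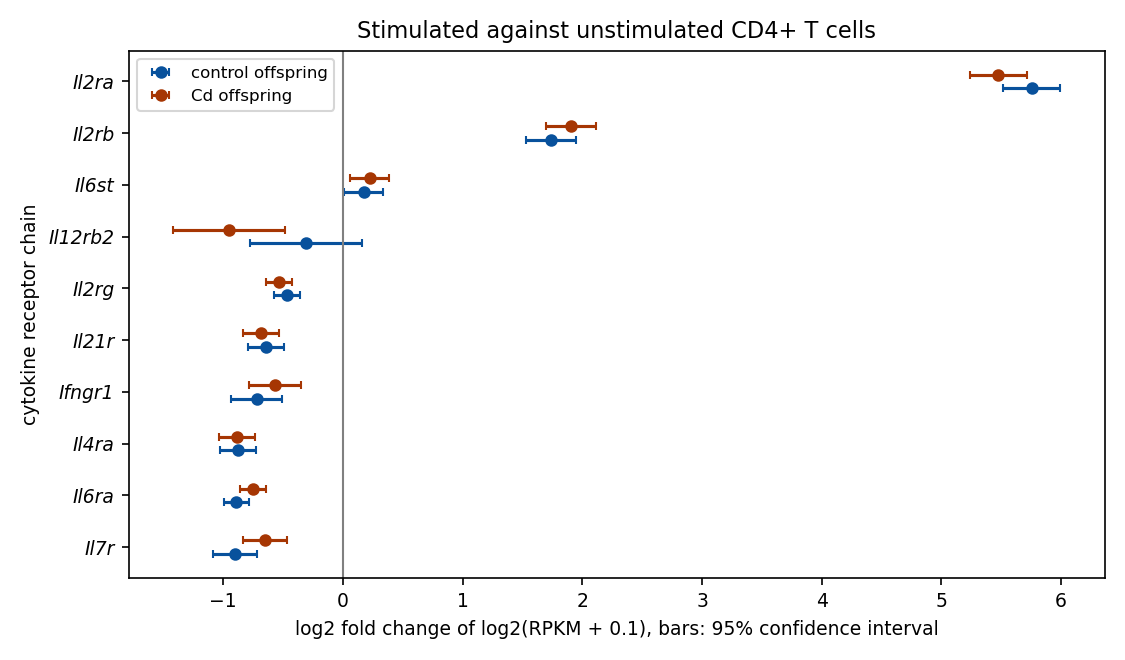
Log2 fold change of stimulated against unstimulated cells for each chain, in control and in Cd offspring, from log2(RPKM + 0.1); points are estimates over 2 libraries a group and bars 95% confidence intervals. Il2ra and Il2rb lie above 1, the gamma chain and most of its partners lie between -1 and 0, and the 2 offspring groups are close for most chains.

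All 10 chains had the same sign of change in both offspring groups, which share no library, 3 higher and 7 lower. No chain changed sign with stimulation in any of the 18 alternative settings of the fit, including other scalings. Most genes of the T cell marker list were lower in the same libraries. Cd3e went from 462 and 464 RPKM to 306 and 318 RPKM in control libraries, a log2 fold change of -0.57, and 6 of 7 T cell markers fell at an adjusted p under 0.01, with a list median of -0.66, while Cd5 was at -0.09 (adjusted p = 0.11). The falling chains spanned -0.47 to -0.90 in control offspring. Whether these decreases and those of the chains are related was not tested.

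To show the sequence in front of the chains that the comparison turns on, the 250 bases upstream of the annotated start are given for Il2ra, which rose most, for Il4ra and Il6ra, which fell, and for Il6st, which did not pass the test. They are from RefSeq on GRCm38.p6 and run 5′ to 3′ on the strand of the gene. Capitals mark every match, on either strand, to the motifs searched, which were AP-1 (TGANTCA), the STAT site GAS (TTCNNNGAA), the NFAT core (GGAAA), ETS (GGAAGT), FOX (TGTTTAC), the GC box (GGGCGG), the TATA box (TATAAA) and kappaB.
Il2ra, chr2:11642542-11642791, plus strand: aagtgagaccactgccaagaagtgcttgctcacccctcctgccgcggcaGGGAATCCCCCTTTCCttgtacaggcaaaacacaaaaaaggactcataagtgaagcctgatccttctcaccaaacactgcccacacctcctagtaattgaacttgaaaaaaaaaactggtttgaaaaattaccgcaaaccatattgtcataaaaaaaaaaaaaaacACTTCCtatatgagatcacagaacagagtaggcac
Il4ra, chr7:125552021-125552270, plus strand: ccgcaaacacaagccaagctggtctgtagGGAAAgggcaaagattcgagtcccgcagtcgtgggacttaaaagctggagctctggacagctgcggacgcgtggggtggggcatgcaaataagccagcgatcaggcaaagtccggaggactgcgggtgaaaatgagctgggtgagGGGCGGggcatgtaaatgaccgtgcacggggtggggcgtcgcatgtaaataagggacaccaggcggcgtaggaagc
Il6ra, chr3:89913197-89913446, minus strand: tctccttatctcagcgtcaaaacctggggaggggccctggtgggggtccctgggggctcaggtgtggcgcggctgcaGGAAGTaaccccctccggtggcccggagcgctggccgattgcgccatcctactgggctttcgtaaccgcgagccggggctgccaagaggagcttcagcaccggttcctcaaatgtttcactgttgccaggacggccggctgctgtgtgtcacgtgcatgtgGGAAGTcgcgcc
Il6st, chr13:112463820-112464069, plus strand: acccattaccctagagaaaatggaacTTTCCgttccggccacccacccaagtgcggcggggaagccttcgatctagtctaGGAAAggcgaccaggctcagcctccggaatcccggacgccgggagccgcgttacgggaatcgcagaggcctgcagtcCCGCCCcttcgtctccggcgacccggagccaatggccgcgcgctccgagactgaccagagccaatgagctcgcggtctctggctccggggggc

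The run of capitals in Il2ra holds 2 overlapping kappaB matches, at bases -201 to -192 and -200 to -191 from the start, followed directly by an NFAT core match on the other strand at -190 to -186, and the last capitals are an ETS match on the other strand. kappaB was in 3.9% of the 32851 promoters of this length searched and in 1 of the 9 member promoters with an entry. None of the 9 held AP-1 or TATA, which were in 6.75% and 12.4% of all promoters. GAS was in those of Il7r and Il12rb2 (7.02% of all), and the NFAT core in 5 of 9 (55.6% of all). ETS was in 3 of 9 (19.7% of all), the GC box in 4 of 9 (32.7% of all) and FOX in that of Il21r alone (3.17% of all). For Il21r, Il7r and Il12rb2 the bases searched run past the start of the annotated span into the gene. The FOX and GC box matches of Il21r and the ETS match of Il7r lie within the spans of these genes. The bases of Il2ra held 42.4% G and C and 3 CpG, those of Il4ra 59.6% and 17, those of Il6ra 65.2% and 18, and those of Il6st 66.0% and 26, beside medians of 52.4% and 6 over all promoters. The matches describe letters only. The promoter of Il2rb was not analysed here.

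The effect of parental Cd was compared within each state of stimulation at an adjusted p under 0.05. None of the 10 chains was called in unstimulated cells, where 0.896% of all genes were called (17 higher and 96 lower), and none in stimulated cells, where 0.0% were called by limma or by its voom variant. At an unadjusted p under 0.05 there was 1 chain in each state, Il2rb lower in unstimulated and Il7r higher in stimulated Cd cells, beside 1748 and 414 of the 12605 genes tested. With 2 libraries against 2, an exact permutation test cannot give a p below 0.333. The median log2 fold change of the chains was -0.06 in unstimulated and -0.01 in stimulated cells, beside 0.01 and -0.01 over all genes.

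In unstimulated cells 6 chains had libraries that did not overlap between Cd and control offspring, 2 higher and 4 lower in Cd, which compares with 42.3% of all genes. Il2rb had 32.1 and 28.1 RPKM in control and 23.4 and 27.4 RPKM in Cd libraries, a log2 fold change of -0.25 ± 0.09 with a limma adjusted p of 0.31. Il2rg had 325 and 314 RPKM in control and 343 and 340 RPKM in Cd libraries, a log2 fold change of 0.10 with a 95% interval of -0.01 to 0.20. Il2ra was the other chain whose Cd libraries were the higher ones, at 0.14 (-0.09 to 0.38), and Il4ra, Il6ra and Ifngr1 were lower, at -0.09, -0.09 and -0.14, with limma adjusted p of 0.40 to 0.57 for these 4 chains. The lowest and the highest bound of any interval over the 9 chains other than Il12rb2 were -0.45 for Il2rb and 0.38 for Il2ra, so changes beyond these sizes lay outside the intervals in unstimulated cells. Il12rb2, with fewer reads, had the wide interval of -0.24 to 0.70.

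In stimulated cells 5 chains did not overlap, 2 higher and 3 lower in Cd, beside 36.7% of all genes. Il7r had 130 and 121 RPKM in control and 152 and 134 RPKM in Cd libraries, a log2 fold change of 0.19 ± 0.08 with a limma adjusted p of 1.0. Il6ra was higher by 0.05, and Il2rb, Il4ra and Il12rb2 were lower, at -0.08, -0.10 and -0.41. Il2ra, with 117 and 97.6 RPKM in control and 94.0 and 101 RPKM in Cd libraries, overlapped, at -0.14 (-0.38 to 0.10). None of these differences passed the test.

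**Figure D4:**
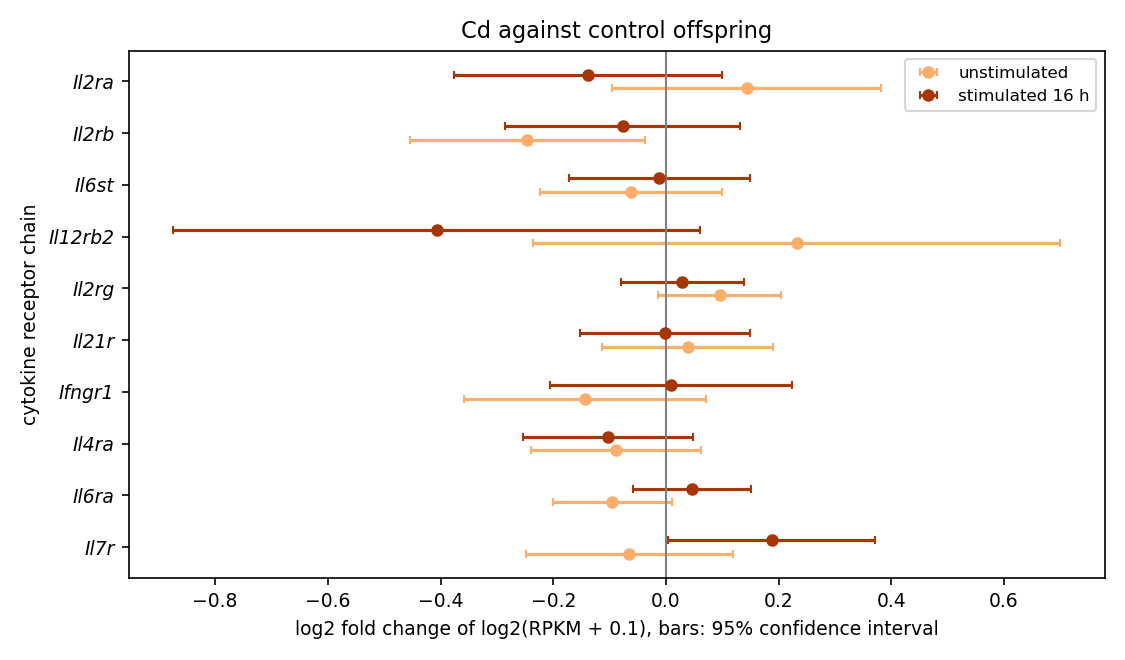
Log2 fold change of Cd against control offspring for each chain, in unstimulated and in stimulated cells, from log2(RPKM + 0.1); points are estimates over 2 libraries a group and bars 95% confidence intervals. Estimates lie close to 0 and most intervals hold 0, with Il12rb2 the least precise.

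Whether Cd offspring responded to stimulation differently from control offspring was tested as an interaction. No chain was called, with 0.357% of all genes called. The difference for Il2ra (Cd minus control response, log2) was -0.28, with a 95% interval of -0.62 to 0.06 and a limma adjusted p of 0.53. It was 0.25 for Il7r (-0.01 to 0.51, adjusted p = 0.48) and 0.14 for Il6ra (-0.01 to 0.29, adjusted p = 0.49). Il12rb2 fell in Cd offspring at an adjusted p of 0.0040 and did not pass in control offspring, but the difference between them, -0.64 with an interval of -1.30 to 0.02, did not pass either (adjusted p = 0.48). The remaining chains had differences of -0.07 to 0.17.

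Other receptor genes, from lists chosen with earlier results known, are given to place the 10 chains among their families. Of 23 other chains of the type I family, to which the gamma chain family belongs, 7 were expressed highly enough to be tested. Of these 2 rose past 2-fold in control offspring and none fell past 2-fold, and the same held in Cd offspring. At an adjusted p under 0.01 at any fold, 2 rose and 2 fell in control offspring, and 2 rose and 1 fell in Cd offspring. The falling chains, named after their values were seen, were Il27ra and, in control offspring only, Il11ra1 (-0.94, limma adjusted p = 0.0048). Il27ra went from 94.0 to 55.9 RPKM in control offspring (-0.75, adjusted p = 5.0e-05) and was at -0.62 in Cd offspring (adjusted p = 0.00014). Il12rb1, the partner of Il12rb2, went from 2.0 to 9.53 RPKM (log2 fold change 2.20, limma adjusted p = 0.00013), and Il15ra, the binding chain for IL-15 that works with Il2rb and Il2rg, from 3.16 to 9.89 RPKM (1.62, adjusted p = 9.2e-06). Il12rb2 itself, at -0.31, did not pass in the same libraries. Of 9 further type II chains, the interferon and IL-10 family, 6 were tested and none passed 2-fold, while 4 fell at an adjusted p under 0.01 at any fold. Among 12 chains of the IL-1, IL-17 and TGF-beta receptors, 7 were tested. Past 2-fold in control offspring, Tgfbr1 rose (1.42), and Il18r1 (-1.61), Il18rap (-1.37) and Il17rb (-1.06) fell, the first pair being the chains of the IL-18 receptor. At an adjusted p under 0.01 at any fold 1 rose and 5 fell. These included Tgfbr2, from 124 to 67.8 RPKM (-0.87, limma adjusted p = 5.5e-06), and Il17ra, from 86.2 to 50.5 RPKM (-0.77, adjusted p = 2.1e-05). Both were named after their values were seen. For Il18rap and Il17rb in control offspring a pseudocount of 1 brought the change within 2-fold, at -0.97 and -0.75. For Cd offspring it gave -0.80 for Il18rap, and 0.99 for Il15ra. Il17rb was also within 2-fold in control offspring without unstimulated library 7 (-0.96) or stimulated library 7 (-0.88), and Tgfbr1 in Cd offspring without unstimulated library 6 (0.97).

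Of 12 ligand genes for these receptors 4 were tested. Il2 rose from 0.703 and 0.517 to 53.0 and 50.2 RPKM in control libraries (log2 fold change 6.20, limma adjusted p = 1.9e-07) and from 0.271 and 0.308 to 43.9 and 47.2 RPKM in Cd libraries (6.87). Lif, a ligand that signals through gp130, rose from 0.229 to 14.4 RPKM (5.47). Ifng, the ligand of Ifngr1, fell from 8.30 to 2.98 RPKM (-1.44), with adjusted p of 0.011 to 0.017 when any of control libraries unstimulated 6, stimulated 6 or stimulated 7 was left out. Il6 was at 0 in all 8 libraries and Il7 above 0 in 1. The ligand that Il2ra binds was thus high in the libraries in which Il2ra was high.

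Downstream of the receptors, 1 of 4 Janus kinases passed in control offspring and none in Cd offspring. This was Jak2, with log2 fold changes of 1.07 and 0.99, and 0.95 in control offspring under quantile normalization. In Cd offspring Jak2 was past 2-fold without unstimulated library 7 (1.07) or stimulated library 7 (1.02). The kinases of the gamma chain receptors, named here after their values were seen, were Jak1 at -0.69 (adjusted p = 1.9e-05) and Jak3 at 0.24 (adjusted p = 0.015). Of 11 STAT and SOCS genes 2 rose past 2-fold and 1 fell in each offspring group. Stat5a, a factor activated by IL-2 and IL-7, rose from 24.7 to 79.7 RPKM (1.69, adjusted p = 6.4e-07) and Cish, an inhibitor that STAT5 induces, from 9.26 to 109 RPKM (3.55, adjusted p = 8.9e-08). Socs3, an inhibitor of gp130 signalling, fell from 20.5 to 6.98 RPKM (-1.54, adjusted p = 8.5e-05).

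Of 14 genes known as targets of these cytokines 13 were tested, and 6 rose and 2 fell past 2-fold in control offspring (6 and 1 in Cd offspring). The survival gene Bcl2l1 rose from 7.31 to 123 RPKM (4.06), the interferon-induced Gbp2 from 30.2 to 210 RPKM (2.79) and the growth regulator Myc from 34.1 to 192 RPKM (2.49). Prf1, the pore-forming protein of cytotoxic cells, fell from 17.7 to 1.38 RPKM (-3.59), in the libraries in which the NK marker Klrd1 fell from 15.6 to 4.73 RPKM. Bcl2, a survival gene maintained by IL-7, fell from 36.8 to 16.8 RPKM (-1.13). Of 8 regulatory T cell markers 7 were tested and 3 rose past 2-fold in each offspring group, Tnfrsf18 the highest among them, from 33.4 to 195 RPKM. The sum over all 8 markers was 75.1 to 92.4 RPKM in unstimulated and 277 to 298 RPKM in stimulated libraries, most of the latter from Tnfrsf18. Izumo1r, Ikzf2 and Nrp1, named after their values were seen, did not pass an adjusted p of 0.01 in either offspring group. In control offspring they were at -0.12, 0.35 and 0.67 (limma adjusted p = 0.18, 0.34 and 0.084). Foxp3 itself, named after its values were seen, had 4.48 to 5.08 RPKM before and 5.98 to 7.69 RPKM after stimulation. Foxp3 rose in Cd offspring (log2 fold change 0.68, limma adjusted p = 0.0011) and missed the threshold in control offspring (0.41, adjusted p = 0.014). Activated conventional T cells also express Il2ra and Tnfrsf18. The study describes isolation of cells without CD25 for the sequenced control cells and, in its qPCR, for both offspring groups. Such isolation would remove most regulatory T cells, and the part of regulatory T cells in the increase of Il2ra was not tested.

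**Figure D5:**
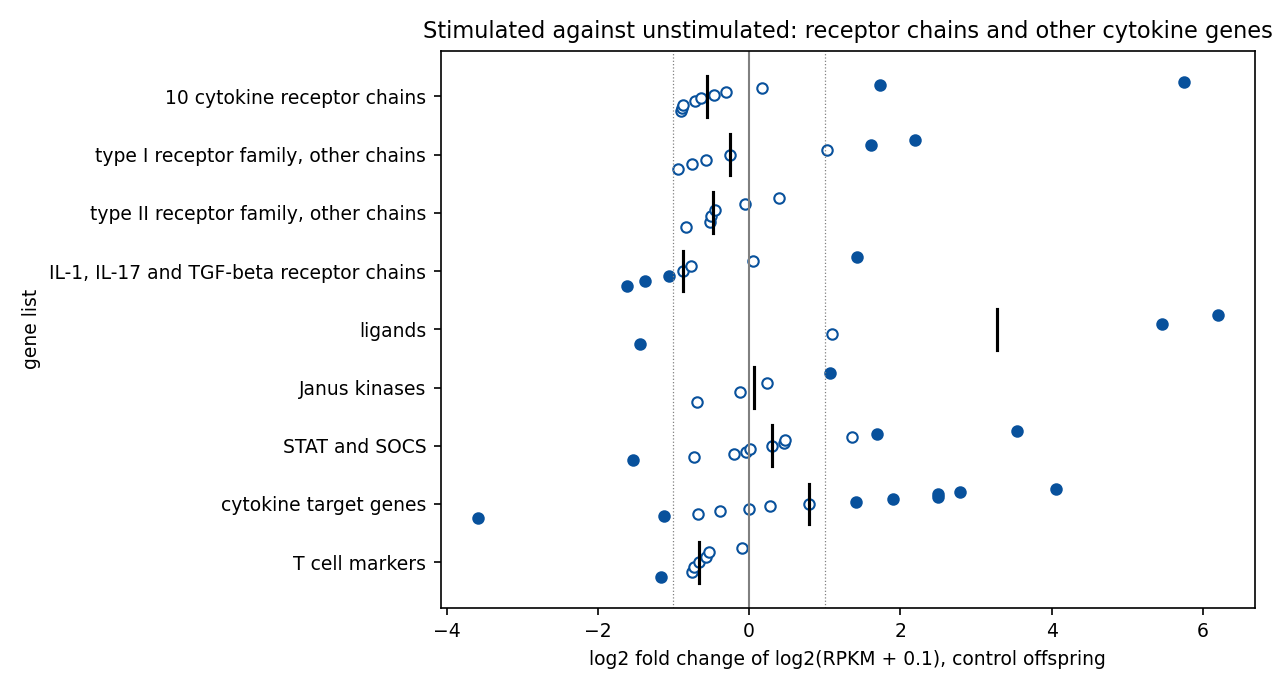
Log2 fold change with stimulation in control offspring for the 10 receptor chains and for other cytokine gene lists and T cell markers; each point is a gene, filled where it passed an adjusted p of 0.01 and 2-fold (dotted lines), and black bars are list medians. Il2ra, at 5.76, lies among the largest increases shown with Il2 and Lif, and the medians of the receptor lists and of the T cell markers lie below 0.

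Among these list genes, 3 were called lower in unstimulated Cd cells than in unstimulated control cells. In control libraries Il2 was read 12 and 8 times, and in Cd libraries 5 and 6 times (log2 fold change -0.86, limma adjusted p = 0.041). It passed in 3 of 18 alternative settings, with an adjusted p of 0.027 to 0.48 over them. Bcl2 had 37.0 and 36.6 RPKM in control and 28.5 and 29.6 RPKM in Cd libraries (-0.34, adjusted p = 0.043), and Tnfrsf18 33.6 and 33.1 against 27.6 and 27.4 RPKM (-0.28, adjusted p = 0.036). Both had no overlap between the groups, and each passed in 4 of 18 alternatives, with an adjusted p of 0.0040 to 0.25 and of 0.035 to 0.26. With the replicate numbers as a block the adjusted p was 0.084 for Il2, 0.097 for Bcl2 and 0.085 for Tnfrsf18.

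For the chains other than Il6st, the genes with the most similar profile were taken as those with the lowest root mean square difference of centred log2(RPKM + 0.1) values over the 8 libraries, among 8672 genes with a mean of at least 5 RPKM. Il2ra was closest to Lif, at a difference of 0.215, then to Cpd and Hk2, the hexokinase induced in growing cells. Il2rb was closest to Plp2 (0.0713), followed by Sh3bp2 and Kctd17, and Il2rg to Ano6 (0.0228), followed by Diaph1 and Tut7. Il7r was closest to Sec11c (0.0618), Il4ra to Zkscan14 (0.0486), Il21r to Map3k14 (0.0276) and Il6ra to Ppp1r18 (0.0267). Ifngr1 was closest to Use1 (0.0584) and Il12rb2, whose counts are low, to Mir3061 (0.164). The likeness is a description over 8 libraries in 4 groups, in which any gene with a like response to stimulation comes close.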

How the data were processed

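Reads of 8 RNA libraries from splenic CD4+ T cells, grouped by their titles, underlie all values. The authors prepared them with a KAPA mRNA kit, aligned reads to mm10 (Subread) and counted RefSeq transcripts (featureCounts). Versions and strand setting are not given in the sources used here. The values the authors deposited are on a log2 scale, log2(RPKM + 1) + 0.0001, as read from the values. They were transformed back to RPKM. Steps between values gave whole reads, transcript lengths and library totals for 17794 genes above 0 in at least 2 libraries (relative tolerance 1e-11), and intervals from reads cover counting error only. The step from counts to the deposited log2 values is not stated, and other counting choices may give other RPKM.

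With limma 3.58.1 in R 4.3.3, log2(RPKM + 0.1) of the 12605 genes whose mean reached 0.5 RPKM was fitted as 4 group means (trended empirical Bayes), and p-values of all these genes were adjusted by the Benjamini-Hochberg method. Adding 0.1 understates changes of low genes. The test was planned for RPKM, so the deposited log2 values were transformed back for it. The fit was tested on simulated data. The alternatives used a pseudocount of 0.5 or 1, every gene or those with a mean of 1 RPKM, the libraries of 1 comparison, scaling by median of ratios, quantiles, a replicate block, an untrended fit, limma voom on the recovered reads, and each library left out in turn, where the lone library is assumed to vary like the other groups.

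The members and the gene lists were chosen with earlier results of these data known. The text names all members, up to 3 genes per list with the largest increase and decrease called in control offspring, the highest gene of a marker list, the genes most like each member and genes that overlap one. Results for some single genes that this rule selects are left out. Motifs were chosen after the data were seen. Gene positions and promoters are those of RefSeq GRCm38.p6, and gene numbers matched it for 25275 of 27179 genes. The qPCR, protein and flow cytometry data of the study were not used here. Tables and plots were made in Python 3.11.15 with matplotlib 3.10.9.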

Additional observations from a re-analysis of the deposited data

How the results depend on the processing

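The stimulation calls of Il2ra and Il2rb and the decreases of Il2rg, Il7r, Il4ra, Il21r, Il6ra and Ifngr1 held in each of the 18 alternatives. Il4ra passed 2-fold in Cd offspring under quantile normalization, and Il12rb2 did without stimulated Cd library 7, which makes 3 chains called there. Quantile normalization moved the median of all genes by -0.10 in control offspring (log2). No chain was called for Cd or for the interaction under any alternative.

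The count of all genes called, 113 for Cd in unstimulated cells, was 65 with no filter, 52 with only the libraries of the comparison, 14 with no trend and 211 with voom. It was 19 to 105 when a library was left out, 19 without unstimulated control library 6, 67 without unstimulated control library 7 and 61 without either stimulated Cd library. For Cd in stimulated cells, with 0 called, it was 9 with no filter, 2 with no trend and 0 to 3 when a library was left out (2 without either unstimulated control library, 3 without stimulated control library 7). For the interaction, with 45, it was 28 with no filter, 4 with no trend, 111 with voom and 2 to 63 when a library was left out, with 2 without stimulated Cd library 7, 3 without stimulated control library 6, 27 without unstimulated control library 6 and 28 without stimulated control library 7. The cause of these moves was not tested.

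Values near 0 changed sign, none with a call. Under median-of-ratios scaling the interaction of Il4ra was 0.015 and the Cd difference in stimulated cells was 0.011 for Il21r and 0.00065 for Il6st, and under quantile normalization it was 0.0051 for Il21r. Leaving out a library gave ranges across 0 for Il7r (-0.13 to 0.0042), Il21r (-0.047 to 0.12), Il6st (-0.15 to 0.025) and Il12rb2 (-0.00019 to 0.47) in unstimulated cells, for Il21r (-0.049 to 0.045), Il6st (-0.074 to 0.051) and Ifngr1 (-0.091 to 0.11) in stimulated cells, and for Il4ra (-0.088 to 0.058), Il21r (-0.13 to 0.045) and Il6st (-0.037 to 0.14) in the interaction. Ifngr2 was at -0.079 with stimulation in Cd offspring under quantile normalization.

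No source used here says whether libraries of an offspring group with the same number come from the same animal or litter. Deviations of libraries with the same number from the group mean correlated at -0.11 to 0.06 between groups. Such correlations cannot show whether stimulated and unstimulated cells came from the same animals. The numbers were not taken to pair the samples. Used as a block, the numbers join libraries of control and Cd offspring, and a pairing within each offspring group was not fitted. With them as a replicate block 2 chains were called for stimulation in each offspring group and 0 in the other comparisons, and 2325, 2313, 76, 0 and 36 genes in all (stimulation in control and in Cd offspring, Cd in unstimulated and in stimulated cells, interaction). Low depth limits Il12rb2 (105 to 227 reads) and unstimulated Il2 (5 to 12 reads).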
